A study of Mus musculus with 3 samples.

Results

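The SOCS family (suppressors of cytokine signaling) has 8 genes in the mouse, Socs1 to Socs7 and Cish, and all 8 were found by gene symbol among the 56748 genes of the count table. They were examined in cultured adult mouse cardiomyocytes (ACMs) treated with oncostatin M (OSM), human IL-6 or vehicle. With OSM, Socs3 was 22.9-fold higher than with vehicle, Cish was 3.44-fold higher, and no other member was called, a gene being called when the whole counting interval of its ratio lay beyond 2-fold. With human IL-6, none of the 7 members with enough counts for a comparison was called, and Socs3 gave 646 counts beside 670 with vehicle.

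Cytokines of the IL-6 family signal through gp130, which activates Janus kinases (JAKs) and the transcription factor STAT3. STAT factors turn on SOCS genes, whose proteins act back on the same receptors and kinases as a negative feedback loop. Every SOCS protein joins an SH2 domain, which reads phosphorylated tyrosines, to a C-terminal SOCS box, which recruits elongins B and C and Cullin 5 into a ubiquitin ligase. In the heart the family is best known through SOCS3, which limits gp130 signaling in cardiomyocytes.

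ACMs were isolated from ventricles of wild-type (WT) mice aged 8 to 10 weeks and kept in culture, and the study asked which genes OSM turns on through its receptor and JAK1. One group received mouse OSM at 10 ng/mL, another received human IL-6 at 10 ng/mL, and the control group received vehicle (0.1% BSA), each for 16 h. All 3 groups shared serum-free M199 medium with BSA, the myosin inhibitor 2,3-butanedione monoxime, an insulin, transferrin and selenium supplement, and lipids. RNA was pooled within each group before sequencing, the sources used here do not give how many hearts entered a pool, and each group is 1 library. A difference therefore compares 2 libraries, with no replicate spread and no test, and every interval covers counting error only.

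The libraries held 24939980 (vehicle), 26362446 (IL-6) and 30773001 (OSM) counts assigned to genes. All 10 cardiomyocyte markers were above 1 FPKM (fragments scaled by gene length in kilobases and by library depth) in every library, with sums of 15805 to 20367 FPKM. Fibroblast markers summed to at most 1.08 FPKM and endothelial markers to at most 8.45 FPKM. Smooth muscle and pericyte markers summed to 33.1, 35.6 and 23.2 FPKM with vehicle, IL-6 and OSM. Most of this came from Abcc9 (19.9, 22.7 and 8.01 FPKM) and Acta2 (12.2, 12.1 and 14.3 FPKM). The lower sum with OSM thus came mainly from Abcc9, while Acta2 was not lower. Only these 2 of the 7 listed genes reached 1 FPKM in any library, so the sum speaks for them rather than for the cell types. The macrophage list summed to 13.8, 14.3 and 39.9 FPKM in that order, most of it from Cd68, a lysosomal protein. Csf1r stood at 1.28, 1.06 and 1.21 FPKM. Lyz2 gave 13, 4 and 31 counts and Adgre1 8, 0 and 6, while Ptprc, C1qa, C1qb and Fcgr1 had 0 counts in every library. Fewer cells of a type and less RNA per cell cannot be told apart in such data.

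Among the members, Socs3, whose protein binds gp130 and blocks the attached JAKs, stood highest. It gave 670 counts with vehicle, 646 with IL-6 and 18194 with OSM, or 9.16 FPKM (95% Poisson interval 8.48 to 9.88), 8.25 FPKM (7.62 to 8.91) and 211 FPKM (208 to 214). The OSM library was thus high, and vehicle and IL-6 lay close together with overlapping intervals. On the log2 scale of TMM-scaled counts, the ratio of OSM to vehicle was 4.52 (95% Clopper-Pearson interval 4.40 to 4.63), that of OSM to IL-6 was 4.67 (4.56 to 4.79, 25.5-fold), and that of IL-6 to vehicle was -0.15 (-0.31 to 0.01). Of the protein-coding genes with at least 1 count, 3769 of 13733 had a higher FPKM than Socs3 with vehicle, and 232 of 13799 did with OSM.

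Cish, a classical STAT5 target whose protein competes with STAT5 for docking sites on receptors, was the other member called against vehicle. Its counts were 151 with vehicle, 215 with IL-6 and 617 with OSM, and its levels were 0.930 FPKM (0.788 to 1.09), 1.24 FPKM (1.08 to 1.41) and 3.22 FPKM (2.97 to 3.48). OSM was again the high library, and IL-6 lay between vehicle and OSM. The log2 ratio of Cish was 1.78 (1.52 to 2.05) for OSM to vehicle, 1.38 (1.15 to 1.61, 2.60-fold) for OSM to IL-6, and 0.41 (0.10 to 0.72) for IL-6 to vehicle. The log2 ratio of OSM to vehicle was 2.73 larger for Socs3 than for Cish, with an interval of 2.44 to 3.02.

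STAT factors bind DNA at the palindrome TTCNNNGAA, so the sequence around the RefSeq start sites of Socs3 and Cish is shown for these motifs. RefSeq windows from 250 bases before to 50 after a start (table built on GRCm38.p6) were given for 4 of the 8 members, Socs1, Socs3, Socs4 and Cish. Each printed run is the 30 bases around the match, with the motif in capitals, and its GRCm39 position comes from an exact match to that genome. The Socs3 run lies at chr11:117860327-117860356 on the minus strand, with the motif 154 to 146 bases before the RefSeq start. In GENCODE the canonical Socs3 transcript starts 69 bases downstream of that position, other transcripts reach further upstream, and 0 of the 50 bases after the RefSeq start are exon, so the distance holds for the RefSeq start only. The Cish run lies at chr9:107173853-107173882 on the plus strand, with motifs at bases 1 to 9 and 12 to 20 from the RefSeq start. The canonical Cish transcript starts upstream of the whole window, at -633 bases from the RefSeq start. All 250 window bases before the RefSeq start are GENCODE exon, so these motif positions too hold for the RefSeq start only. GENCODE annotates both runs as exon of some transcript of the gene.
Socs3: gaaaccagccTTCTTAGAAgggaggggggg
Cish: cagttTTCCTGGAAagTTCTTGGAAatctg
The motif reads the same on both strands. Of 32851 RefSeq windows of this length, 8.30% held it at least once and 0.457% at least 2 times. The windows of Socs1 and Socs4 held 0 copies. The canonical Socs1 transcript starts upstream of its window, at -475 bases from the RefSeq start. The sequence before that canonical start was therefore not searched. The wider palindrome TTCNNNNGAA, which STAT6 prefers and which 6.95% of windows held, had 0 copies in the 4 members' windows. A match describes these letters and does not show binding.

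Socs1, the strongest direct JAK inhibitor of the family and a brake on interferon signaling, was barely detected. It gave 4 counts with vehicle, 3 with IL-6 and 25 with OSM, or 0.0544 FPKM (0.0148 to 0.139), 0.0381 FPKM (0.00785 to 0.111) and 0.288 FPKM (0.186 to 0.425). The OSM library was the high one, but even there Socs1 stayed below 1 FPKM. Its log2 ratio of OSM to vehicle was 2.40 (0.86 to 4.38), which was not called, and that of OSM to IL-6 was 2.92 (1.20 to 5.29), which was. With 7 counts over IL-6 and vehicle, it was below the minimum of 10 counts for that comparison.

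Socs2, which restrains growth hormone receptor signaling, had 315 counts with vehicle, 287 with IL-6 and 595 with OSM, or 1.31, 1.11 and 2.09 FPKM. The OSM library was higher than the others, without passing 2-fold. The log2 ratios were 0.67 (0.47 to 0.87) for OSM to vehicle, 0.91 (0.70 to 1.12) for OSM to IL-6 and -0.23 (-0.47 to 0.00) for IL-6 to vehicle. The log2 ratio of OSM to vehicle was 1.11 larger for Cish than for Socs2 (interval 0.78 to 1.45).

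Socs4 and Socs7 were lower with OSM by nearly the same ratio. Socs4, which with Socs5 is linked to EGF receptor turnover, had 899, 973 and 619 counts with vehicle, IL-6 and OSM, or 5.17, 5.22 and 3.01 FPKM. Socs7, linked to insulin signaling through IRS adaptors, had 1128, 1341 and 782 counts, or 6.04, 6.70 and 3.55 FPKM. For both genes the OSM library was the low one, beyond counting error but within 2-fold. The log2 ratio of OSM to vehicle was -0.79 (-0.94 to -0.64) for Socs4 and -0.78 (-0.91 to -0.64) for Socs7, and the difference between them was -0.01 (-0.21 to 0.19). Against IL-6 the ratios were -0.79 (-0.94 to -0.65) and -0.92 (-1.05 to -0.79). Between IL-6 and vehicle, Socs7 had a log2 ratio of 0.15 (0.03 to 0.27) and Socs4 of 0.01.

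Socs5 and Socs6 lay near no change. Socs5 had 845, 968 and 983 counts with vehicle, IL-6 and OSM (5.21, 5.57 and 5.13 FPKM), and its log2 ratio of OSM to vehicle was -0.03 (-0.16 to 0.11), the only member whose interval held no change. Socs6, which binds KIT and insulin receptor complexes, had 1359, 1530 and 1443 counts (4.73, 4.97 and 4.26 FPKM), with a log2 ratio of OSM to vehicle of -0.16 (-0.27 to -0.05) and of OSM to IL-6 of -0.23 (-0.33 to -0.12). Their OSM to vehicle ratios differed by 0.13 (-0.04 to 0.30), within counting error.

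**Figure D1:**
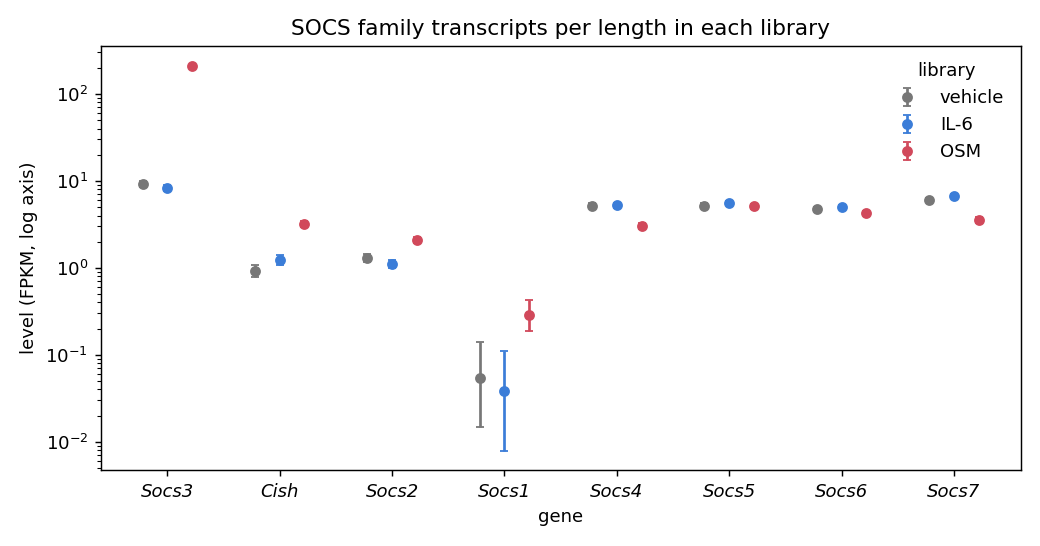
Level of each SOCS family gene in FPKM (log axis) in the vehicle, IL-6 and OSM libraries, 1 library each, with 95% Poisson intervals of the count as bars. Socs3 stands at 9.16, 8.25 and 211 FPKM, while Socs4 to Socs7 lie between 3.01 and 6.70 FPKM in all 3 libraries.

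Counted over the family, 2 of 8 members were called higher with OSM than with vehicle and 0 lower, where 3.70% of the 15537 genes compared were called higher and 5.46% lower. With OSM against IL-6, 3 of 8 were called higher (Socs1, Socs3 and Cish) and 0 lower, where the shares of all 15544 genes were 4.24% and 5.44%. These comparisons share the OSM library, so the second is no independent repeat of the first. With IL-6 against vehicle, 0 of 7 were called, beside 1.77% of 15472 genes called higher and 1.74% lower. The median log2 ratio of the members was 0.32 for OSM to vehicle, 0.39 for OSM to IL-6 and 0.07 for IL-6 to vehicle, where the medians of all genes compared were -0.00, 0.00 and -0.00.

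Counting every interval that excluded no change, 4 members lay above and 3 below for OSM against vehicle, where 33.1% of all genes lay above and 33.4% below. OSM against IL-6 gave 4 above and 3 below as well (33.2% and 33.2% of all genes), and IL-6 against vehicle gave 2 above, Socs7 and Cish, and 0 below (19.6% and 19.1%). The members split by the length of their coding sequence. Socs1, Socs3, Cish and Socs2, with coding sequences of 636 to 786 bases, all lay above no change with OSM against vehicle. Socs4, Socs6, Socs5 and Socs7, with coding sequences of 1308 to 1737 bases and long N-terminal parts, lay at log2 ratios of -0.79 to -0.03, 3 of them below no change. This grouping was made after the values were seen. Relative to genes of similar length Socs6 turned to 0.28 and Socs5 to 0.06, so the split around no change did not hold on that scale. On that scale the shorter coding sequences lay at 1.10 to 4.29 and the longer at -0.61 to 0.28. These are the same ratios shifted, so they are no check of a grouping made from them. How all genes divide by coding length was not computed.

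**Figure D2:**
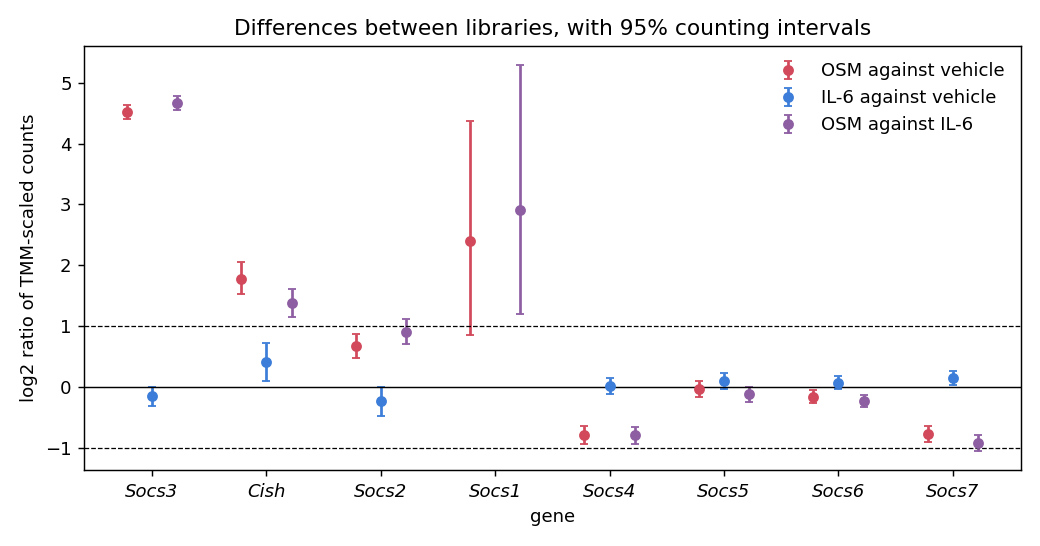
Log2 ratio of TMM-scaled counts of each SOCS family gene for OSM to vehicle, IL-6 to vehicle and OSM to IL-6, with 95% Clopper-Pearson intervals and lines at no change and 2-fold. Socs3 lies at 4.52 and 4.67 in the comparisons with OSM and at -0.15 for IL-6 to vehicle, and Socs1 has no value for IL-6 to vehicle.

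The make-up of the family per unit length changed accordingly. The summed level of the 8 genes was 32.6 FPKM with vehicle, 33.1 with IL-6 and 232 with OSM. Without Socs3 the sums were 23.4, 24.9 and 21.5 FPKM, so the higher total with OSM came from Socs3. Socs3 made up 28.1%, 24.9% and 90.7% of the family's FPKM in these libraries.

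Ordered by FPKM with the authors' gene lengths, the vehicle library ran Socs3, Socs7, Socs5, Socs4, Socs6, Socs2, Cish and Socs1. On this divisor, only Socs5 and Socs4 were neighbours whose levels did not differ beyond counting error, and Socs3 was 1.52-fold above Socs7. With IL-6 the order was the same except that Cish stood above Socs2, and Socs5 and Socs4, Socs4 and Socs6, and Cish and Socs2 were neighbours within counting error. With OSM the order was Socs3, Socs5, Socs6, Socs7, Cish, Socs4, Socs2 and Socs1, with Socs3 41.1-fold above Socs5. Cish was far below Socs4 with vehicle (FPKM ratio 0.180) and within counting error of it with OSM (FPKM ratio 1.07, log2 interval -0.07 to 0.26). The spread over samples is unknown, so these orders hold for the libraries sequenced.

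The levels and their order also depend on the length used as divisor. The authors' gene length exceeds the canonical GENCODE transcript 3.75-fold for Socs2 (9531 against 2540 bases), 1.87-fold for Socs6 and 1.76-fold for Cish. Divided by the canonical length, the FPKM level with vehicle was 9.95 for Socs3, 8.83 for Socs6, 7.01 for Socs5, 6.06 for Socs7, 5.15 for Socs4 and 4.90 for Socs2, so that Socs6 rather than Socs7 stood next to Socs3. With IL-6, Socs6 (9.28) and Socs3 (8.95) were within counting error. With OSM, Socs3 stood first on either divisor, at 229 and 28.8-fold above Socs6, and Cish (5.66) stood above Socs4 (3.00). Without Socs3 the family summed to 33.6, 35.1 and 35.2 with vehicle, IL-6 and OSM on the canonical length, so that sum was no longer lowest with OSM. Ratios of a single gene between libraries do not depend on this divisor, while those of the summed family do. Which transcripts the cells used was not tested.

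**Figure D3:**
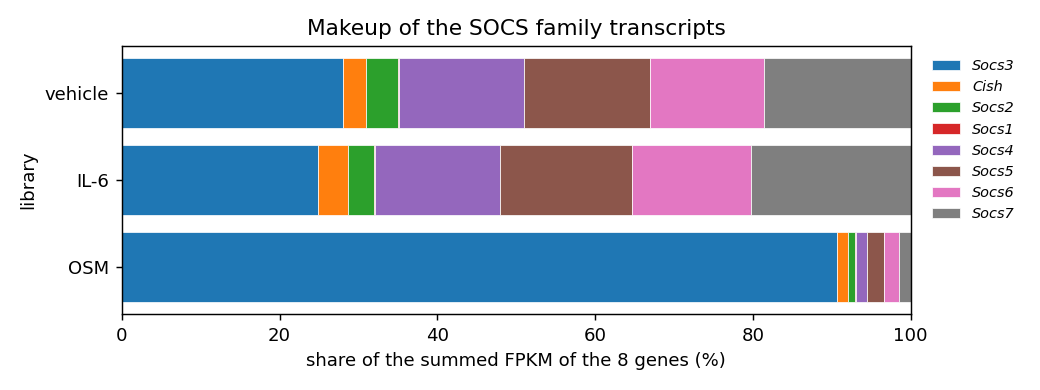
Share of each gene in the summed FPKM of the SOCS family, in percent, for the vehicle, IL-6 and OSM libraries. Socs3 takes 28.1%, 24.9% and 90.7%.

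Gene length moved with the ratio of OSM to vehicle across all genes, and the members differ in length. The median log2 ratio was 0.51 in the class of shortest protein-coding genes and -0.73 in that of the longest. Each member was therefore set beside the 500 compared protein-coding genes nearest to it in length, whose median was 0.22 for Socs3, -0.09 for Cish, -0.43 for Socs2, -0.18 for Socs4 and -0.44 for Socs6. Relative to these medians, the log2 ratio was 4.29 for Socs3, 1.87 for Cish, 2.17 for Socs1 and 1.10 for Socs2. Socs3, Cish, Socs1 and Socs2 stayed above genes of their own length, and Socs4 and Socs7 stayed below, at -0.61 and -0.55. Socs6 changed sign to 0.28 (0.17 to 0.39). Socs5 moved to 0.06 (-0.08 to 0.19), within counting error of no change on either scale. The matching used the authors' gene lengths, which exceed the canonical transcript most for Socs2 and Socs6. Matching by canonical length was not done, so the shifted values hold for the authors' lengths only. What gives the length dependence was not tested.

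**Figure D4:**
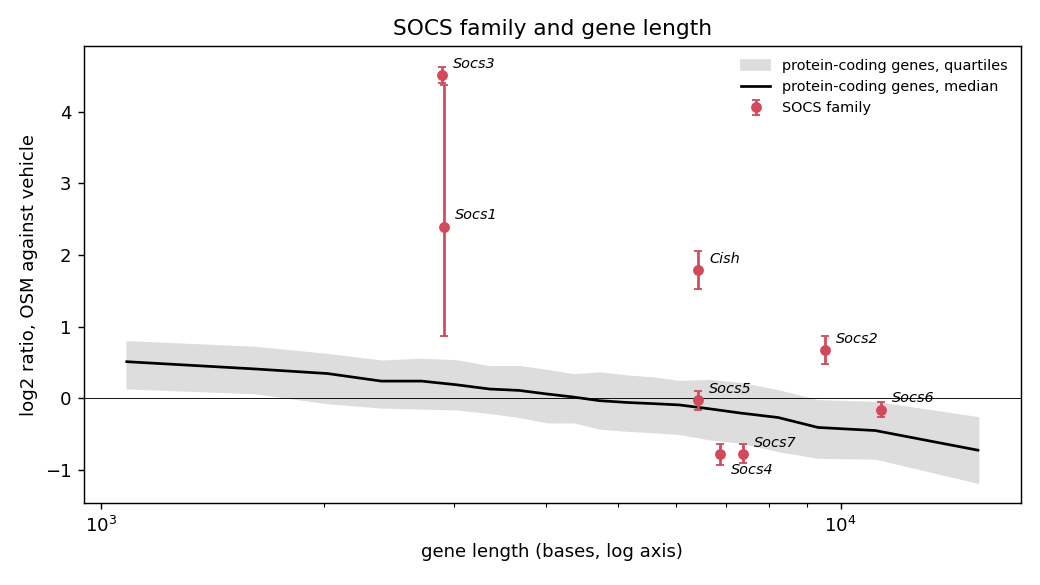
Log2 ratio of OSM to vehicle against gene length in bases (log axis): the line and band give the median and quartiles of protein-coding genes in 20 length classes, and the points give the SOCS family genes with 95% intervals. Socs3 (4.52) and Cish (1.78) lie far above the band, and Socs1 has nearly the same length as Socs3.

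Genes on the opposite strand overlap several members, and the sources used here do not give the strand setting of the counting. Gm57366, antisense to Socs3 over 261 exon bases, had 0, 0 and 43 counts with vehicle, IL-6 and OSM. The antisense genes 2310039L15Rik and 5730420D15Rik share 451 and 689 exon bases with Socs2, and had 76, 48 and 98 counts and 4, 0 and 0 counts. Gm17041, antisense to Cish over 479 exon bases, and Gm46563, antisense to Socs1, had 0 counts in every library. Cish had the largest overlap, since Gm67592 is antisense to it over 1079 exon bases in GENCODE (16.8% of its exon bases). Gm67592 is absent from the authors' count table, so it has no counts to set beside those of Cish. Without strand, reads from a gene and its antisense partner cannot be told apart, so the values of Socs2, Socs3 and Cish are uncertain to that extent. In the authors' GRCm39 annotation Socs3 (ENSMUSG00000053113) spans chr11:117856905-117860873 and Cish (ENSMUSG00000032578) spans chr9:107173225-107179983. The coding part lies in 1 exon in 5 members, Socs1, Socs3, Socs4, Socs5 and Socs6.

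The receptors and kinases that feed the loop lay closer to no change than Socs3 did. Of 6 gp130 receptor genes compared, 1 was called higher with OSM than with vehicle and 0 lower (3.70% of all genes compared were called higher and 5.46% lower), with a median log2 ratio of -0.53. That gene was Osmr, the OSM receptor, with 1023, 1199 and 2929 counts with vehicle, IL-6 and OSM and a log2 ratio of OSM to vehicle of 1.27 (1.17 to 1.37). Il6st, which encodes gp130, had 17343, 19092 and 13870 counts, and its ratio was -0.57 (-0.60 to -0.54). Il6ra, the IL-6 receptor, had only 24, 8 and 14 counts. By the same count, 0 of 10 JAKs and STATs compared were called against vehicle (median 0.12), with Stat3 at 0.61 (0.57 to 0.65) and Tyk2 at -0.93 (-1.09 to -0.77). Stat5a stood at 0.73 against vehicle and at 1.17 against IL-6, where it was the 1 of 10 called higher (4.24% of all genes). Stat5a was also lower with IL-6 than with vehicle, at -0.43 (-0.58 to -0.29). Stat5b stood at -0.21 (-0.31 to -0.11) for OSM to vehicle.

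Among other STAT3 targets, 4 of 12 were called higher with OSM than with vehicle and 0 lower (3.70% and 5.46% of all genes), with a median log2 ratio of 0.52. These were Cebpd at 4.15 (61, 112 and 1288 counts with vehicle, IL-6 and OSM), Bcl3 at 2.45, Junb at 1.58 and Fos at 1.48, all transcriptional regulators. Of the uncalled targets, Hif1a (0.96), Myc (0.55) and Mcl1 (0.48) lay above no change beyond counting error. Ccnd1 (-1.06), Icam1 (-0.76) and Vegfa (-0.28) lay below it. Against IL-6, 5 of 12 were called higher (4.24% of all genes), Hif1a with them. With IL-6 against vehicle 0 of 12 were called, where 1.77% of all genes were called higher and 1.74% lower. Cebpd had a log2 ratio of 0.78 (0.31 to 1.25) in that comparison.

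None of the genes listed as SOCS box ligase partners was called. The list held Elob, Eloc, Cul5, Rnf7, Cul2 and Rbx1, of which the SOCS box description above names only the elongins and Cullin 5. All 6 listed genes were compared and 0 called with OSM against vehicle (median log2 ratio 0.48). Over all genes, 3.70% were called higher and 5.46% lower. Elob and Eloc, the elongins that grip the SOCS box, stood at 0.88 and 0.60, and Cul5, the scaffold, at -0.22. Of 10 other negative regulators compared, 0 were called, with a median of 0.19. Among the phosphatases, Ptpn1 (0.93) and Ptpn2 (0.71) stood above no change and Ptpn11 (-0.63) below. Cbl stood at -0.91. Of 25 other genes with a SOCS box, Asb4 was called higher (1.67) and Asb15 (-2.18) and Asb18 (-1.52) lower, which is near the shares over all genes, with a median of 0.03.

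Of 11 receptors and adaptors that SOCS proteins bind, 1 was called higher and 3 lower with OSM against vehicle, with a median log2 ratio of -0.23. Over all genes too, more were called lower (5.46%) than higher (3.70%). Egfr, the EGF receptor, had 2, 4 and 386 counts with vehicle, IL-6 and OSM, a log2 ratio of 7.34 with the wide interval of 5.48 to 10.4 that 2 counts give. Prlr, the prolactin receptor, had 209, 221 and 28 counts (-3.15), Insr, the insulin receptor, had 4074, 4038 and 1954 counts (-1.31), and Kit had 68, 18 and 21 counts (-1.94). These are long genes, and relative to genes of similar length Prlr was called, at -2.47 (-3.10 to -1.90), while Insr (-0.71, -0.78 to -0.63) and Kit (-1.60, -2.38 to -0.88) were not. Kit was also called lower with IL-6 against vehicle, at -2.02 (-2.85 to -1.25).

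**Figure D5:**
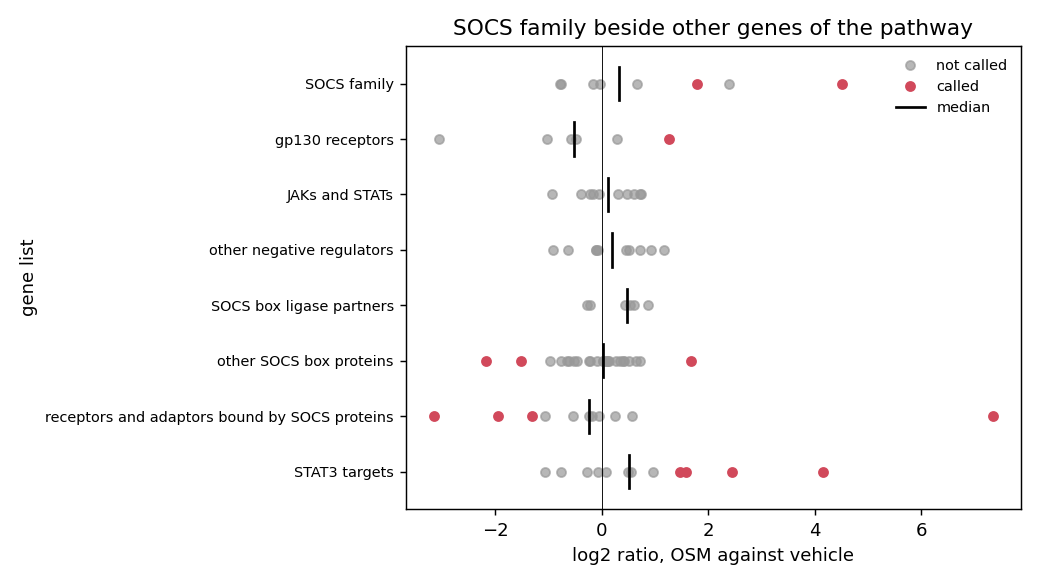
Log2 ratio of OSM to vehicle for every compared gene of the SOCS family and of the pathway lists described here, with the median of each list marked. The SOCS family runs from -0.79 to 4.52 with a median of 0.32, and the STAT3 targets have a median of 0.52.

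The genes whose pattern over the 3 libraries lay nearest to Socs3 were Timp1, Serpinb1a, Spred3, Sprr1a and Rnf122. Nearness was the distance between log2 ratios of IL-6 to vehicle and of OSM to vehicle, over 9879 genes with at least 100 counts on average, and these distances ran from 0.32 to 0.49. Timp1, an inhibitor of matrix metalloproteinases, gave 203, 178 and 6739 counts with vehicle, IL-6 and OSM. Nearest to Cish were Rin1, Fosl1, Pet100, E230013L22Rik and Azin2, at distances of 0.02 to 0.13. Rin1, a regulator of RAS signaling, gave 197, 280 and 791 counts. With 3 libraries, such nearness describes the same pair of ratios and nothing more.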

How the data were processed

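Poly-A RNA of 3 pooled libraries of cultured ACMs was sequenced as read pairs. The authors deposited whole-number counts per gene, which are not normalized, and FPKM, which equal the count divided by gene length and a constant of each library. The submitters' processing notes name fastp, HISAT2 2.2.1, featureCounts 2.0.6 and edgeR 4.0.16 with build mm39. The strand setting of the counting is not given in the sources used here. All columns were matched to libraries (0 were not).

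For each pair of libraries, TMM factors were computed from the counts with edgeR 4.0.16 in R 4.3.3, and a gene entered the comparison if its counts in the pair summed to 10 or more. The log2 ratio of scaled counts carries a 95% Clopper-Pearson interval, conditional on the summed counts, and a gene was called when the whole interval lay beyond 2-fold. FPKM carry exact Poisson intervals of the count. With 1 library per group no p-value was computed. Scripts were tested on simulated data. GENCODE M39, which held 56017 of the 56748 identifiers, gave exon overlaps and coding lengths.

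The text names all 8 members, called genes of each pathway list (at most 5 by size) and genes whose role is explained. It also names the 5 genes nearest in pattern to Socs3 and to Cish, and some uncalled list genes on either side of no change. The distance used factors over the 3 libraries and a prior of 1 count. One further list is not reported here. The members and lists were chosen with earlier results of these data known. Alternatives were DESeq2 size factors (DESeq2 1.42.0), library totals, upper-quartile factors, other count minimums and folds, the deposited FPKM, libraries thinned to equal totals, and ratios relative to genes of similar length. Levels per canonical transcript length were added after seeing the data, as were length-relative ratios of called list genes.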

Additional observations from a re-analysis of the deposited data

How the results depend on the processing

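Of 182 values of single members recomputed under 8 other settings, 172 stayed within the interval reported, and the 10 that did not were all relative to genes of similar length. Called values kept their sign (0 reversed). With a 4-fold in place of a 2-fold limit, OSM called 1 member against vehicle and 1 against IL-6, Socs3 in both. With a 1.5-fold limit, 5 were called against vehicle (Socs1, Socs3 and Cish higher, Socs4 and Socs7 lower) and 6 against IL-6 (Socs2 higher as well). Against IL-6, Socs1 was no longer called with at least 50 counts or with libraries thinned to equal totals, and Socs2 took its place relative to genes of similar length. IL-6 against vehicle called 0 members under every setting run. Across the scalings, the log2 ratio of OSM to vehicle for Socs3 ran from 4.46 to 4.55. Over all genes, a 4-fold limit called 126 higher and 130 lower with OSM against vehicle, a 1.5-fold limit 1328 and 1868, the point estimate alone 1559 and 2049, and a minimum of 50 counts 367 and 526. For IL-6 against vehicle these were 34 and 62, 457 and 445, 1040 and 1023, and 31 and 25. For OSM against IL-6 they were 151 and 124, 1362 and 1856, 1555 and 1986, and 376 and 501. Further choices were added after seeing the data. With canonical transcript length as divisor, the share of Socs3 in the family was 22.8% with vehicle, 20.3% with IL-6 and 86.7% with OSM, since the lengths of Socs2, Socs6 and Cish shrink most. Relative to genes of similar length, Insr and Kit were no longer called with OSM against vehicle, nor Insr and Fos with OSM against IL-6. Fewer genes were tested with the higher minimum. No paired analysis was possible because each group has 1 library and no test was run. Depth limits Socs1 most.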
